A study of Mus musculus with 6 samples.

Results

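The 10 genes described here encode the 2 chains of calprotectin and 8 other proteins that mark neutrophils, most of them stored in neutrophil granules: S100a8, S100a9, Ngp, Ltf, Camp, Lcn2, Mpo, Elane, Ly6g and Retnlg. They were chosen by symbol, and each was found as 1 entry among the 54446 entries of the deposited table. The cells were bone marrow-derived macrophages, grown in culture from the marrow of 6-week-old C57BL/6 mice, and RNA was measured by sequencing. They had been given PBS, a buffer, or KN93, a compound that inhibits CaMKII and CaMKIV, kinases switched on by calcium and calmodulin, at 5 µM or 10 µM, with 2 samples in each of the 3 groups. The labels give no length of treatment, and they do not tell whether replicates were grown as separate cultures or from separate mice. The p-values therefore reflect how far these particular samples differ, and that spread may be technical.

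Neutrophils pack antimicrobial proteins into granules that are made in succession while the cells mature in the marrow. Primary, or azurophil, granules come first and hold myeloperoxidase and the serine proteases. Specific and gelatinase granules follow and hold lactoferrin, cathelicidin, lipocalin 2 and gelatinases. Calprotectin, a dimer of the calcium-binding proteins S100A8 and S100A9, fills the neutrophil cytosol and withholds zinc and manganese from microbes. Monocytes also make the calprotectin chains, and activated macrophages make lipocalin 2.

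Values are FPKM, fragments per 1000 bases of exon and per 1000000 fragments, so levels can be compared between genes. The steps between low values gave an estimate of how many whole fragments stand behind each value. In units of 1000000 fragments, the library totals implied by these steps ran from 24.2 to 28.4 per sample. The recovered fragments summed to more than the implied total in every sample, from 26.1 to 30.7. Intervals from fragments cover counting error only. Bounds given below as at least a certain fold take the PBS fragments as exact, so counting error in these is left out. Replicates of a group had Pearson correlations of 0.9895 to 0.99 across genes, which are not independent replicates. Macrophage markers were present in every sample. Csf1r, which encodes the receptor of the macrophage growth factor CSF1, had 657 and 642 FPKM in the PBS samples. It was lower with KN93, at 439 and 444 FPKM at 5 µM and 327 and 363 FPKM at 10 µM. All 10 listed macrophage markers reached the expression filter of at least 1 FPKM in at least 2 samples.

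To show the sequence context of genes that moved together, and of the neighbouring pair that parted at 10 µM, the 250 bases before the RefSeq start are given 5′ to 3′ on the gene's strand for S100a8, S100a9, Ngp and Lcn2 (RefSeq, GRCm38.p6). Capitals mark matches on either strand to 3 motifs: the TATA box TATAAA, the C/EBP motif TTNCNNAA and the PU.1 motif GAGGAAGT. No matches overlap in these 4 windows. GENCODE M21, the source of the gene spans given below, starts S100a9 at the same base as RefSeq, but starts S100a8 93 bases, Ngp 61 bases and Lcn2 513 bases farther upstream. By that annotation the last 93 bases of the S100a8 window, the last 61 of the Ngp window and all of the Lcn2 window lie inside the gene.
S100a8, chr3:90668821-90669070, plus strand: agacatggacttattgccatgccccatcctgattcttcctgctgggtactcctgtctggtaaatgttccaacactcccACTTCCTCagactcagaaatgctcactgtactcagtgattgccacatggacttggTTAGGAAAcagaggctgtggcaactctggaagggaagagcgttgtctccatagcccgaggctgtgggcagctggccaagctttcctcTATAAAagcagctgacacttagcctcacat
S100a9, chr3:90695722-90695971, minus strand: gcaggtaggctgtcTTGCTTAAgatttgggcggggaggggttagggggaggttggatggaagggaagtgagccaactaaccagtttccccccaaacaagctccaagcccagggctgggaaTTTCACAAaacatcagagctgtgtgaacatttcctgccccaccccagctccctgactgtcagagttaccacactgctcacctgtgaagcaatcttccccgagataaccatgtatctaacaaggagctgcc
Ngp, chr9:110419558-110419807, plus strand: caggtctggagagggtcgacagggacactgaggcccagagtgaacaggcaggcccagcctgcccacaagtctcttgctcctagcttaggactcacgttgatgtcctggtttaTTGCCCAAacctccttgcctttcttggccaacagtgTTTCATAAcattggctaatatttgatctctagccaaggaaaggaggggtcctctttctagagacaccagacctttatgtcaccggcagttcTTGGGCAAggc
Lcn2, chr2:32387740-32387989, minus strand: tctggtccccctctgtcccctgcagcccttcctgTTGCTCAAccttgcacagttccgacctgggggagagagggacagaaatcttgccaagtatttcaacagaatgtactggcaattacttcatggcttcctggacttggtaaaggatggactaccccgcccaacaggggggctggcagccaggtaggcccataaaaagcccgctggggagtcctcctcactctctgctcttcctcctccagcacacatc
The S100a8 window held a TATA box 30 bases before the RefSeq start, which is inside the gene by GENCODE, as well as 1 C/EBP match and 1 PU.1 match. The S100a9 window held 2 C/EBP matches, the Ngp window 3, and the Lcn2 window 1. Of the windows not printed, those of Camp, Mpo and Elane held 0 C/EBP matches, that of Ltf held 2, that of Retnlg 1, and the 2 RefSeq windows of Ly6g held 2 and 1. The Mpo and Elane windows and both Ly6g windows, which overlap, each held 1 PU.1 match. Both Ly6g windows also held a TATA box, and those of Camp, Ltf and Retnlg held neither motif. Of all 32851 RefSeq windows of this length, 36.8% held the C/EBP motif, 12.4% the TATA box and 2.44% the PU.1 motif. The matches are a description of these letters and show no binding.

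The calprotectin pair was the most abundant of the set in PBS and separated at 10 µM. S100a9 had 45.3 and 48.9 FPKM in the PBS samples, 14.98 and 15.97 FPKM at 5 µM, and 0.476 and 0.203 FPKM at 10 µM. Its groups did not overlap, and the 10 µM values rested on 6 and 3 fragments, against 636 and 723 in the PBS samples. S100a8 had 29.6 and 30.2 FPKM in the PBS samples, 13.8 and 14.3 FPKM at 5 µM, and 4.29 and 6.599 FPKM at 10 µM. Its groups did not overlap either, but 72 and 130 fragments were left at 10 µM. With 2 samples a group, a lack of overlap alone says little, here and for the genes below. The share of all genes whose groups do not overlap was not counted. In bulk RNA, fewer cells that hold a transcript and less of it per cell cannot be told apart.

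S100a9 fell at both doses, by 1.54 ± 0.11 at 5 µM and by 5.17 ± 0.11 at 10 µM on the log2(FPKM + 1) scale (estimate ± standard error, limma adjusted p = 0.000668 and 1.26e-05). That scale understates the change of low values. In mean FPKM, S100a9 was 0.339 ± 0.193 at 10 µM and 47.1 ± 2.55 in PBS (SD, n = 2 each), which is 139-fold lower. The fold for S100a9 was 232.5 without 10 µM replicate 1 and 99.01 without 10 µM replicate 2. On the log2(FPKM + 1) scale, which compresses the change of low genes, the fall at 10 µM was the second largest among 12722 genes tested. With voom on the recovered fragments, the log2 change at 10 µM was -7.14 (limma adjusted p = 5.77e-06). S100a8 fell by 1.03 ± 0.16 at 5 µM and by 2.28 ± 0.16 at 10 µM (limma adjusted p = 0.00735 and 0.000214), and its mean at 10 µM was 5.49-fold lower than in PBS. Between the doses both fell again, S100a9 by 3.63 and S100a8 by 1.25 (limma adjusted p = 0.00028 and 0.00659).

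The ratio of S100a9 to S100a8, in FPKM, was 1.53 and 1.62 in the PBS samples, 1.08 and 1.11 at 5 µM, and 0.111 and 0.0307 at 10 µM. S100a9 therefore stood above S100a8 in all 4 samples given PBS or 5 µM and below it in both 10 µM samples. On the log2 scale the ratio averaged -4.10 ± 1.31 at 10 µM and 0.65 ± 0.06 in PBS (SD, n = 2 each). Groups of 2 cannot pass a threshold of 0.05 in an exact two-sided permutation test, whose smallest p is 0.333, the value found here for each of the 3 pairs of groups. For S100a9 the step from 5 to 10 µM differed from the step from PBS to 5 µM by -2.08 ± 0.18 on the log2(FPKM + 1) scale (limma adjusted p = 0.0167), a test that called 5.36% of all genes. This call was lost with no expression filter, without PBS replicate 1 and without either 5 µM replicate (adjusted p = 0.0532 to 0.127). S100a8 did not pass the same test (-0.22 ± 0.28, limma adjusted p = 0.673). The genes lie side by side on chromosome 3 of GRCm38, S100a8 at 90668978 to 90670035 on the plus strand and S100a9 at 90692632 to 90695721 on the minus strand, with 22596 bases and 0 annotated entries of the table between them.

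**Figure D1:**
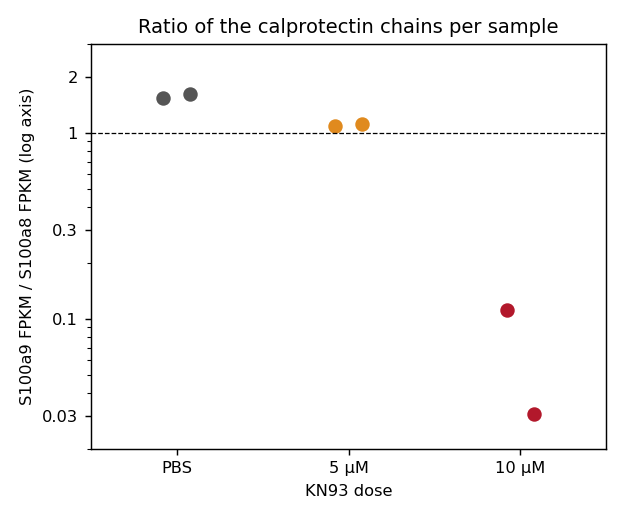
Ratio of S100a9 FPKM to S100a8 FPKM (log axis) by KN93 dose, 1 point per sample, with a dashed line at a ratio of 1. The PBS points lie at 1.53 and 1.62, the 5 µM points at 1.08 and 1.11, and the 10 µM points at 0.111 and 0.0307.

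Of the 4 specific granule genes in the set, Ngp had the highest level in PBS. Ngp encodes neutrophilic granule protein, a mouse relative of the cathelicidins. It had 27.3 and 24.1 FPKM in the PBS samples, 6.34 and 9.48 FPKM at 5 µM, and 0.135 and 0.346 FPKM at 10 µM. The groups did not overlap, and only 4 and 12 fragments were left at 10 µM, against 898 and 836 in the PBS samples. Ngp fell by 1.61 ± 0.18 at 5 µM and by 4.43 ± 0.18 at 10 µM (limma adjusted p = 0.00282 and 4.56e-05), and its mean FPKM at 10 µM was 107-fold lower than in PBS. The fold for Ngp was 74.35 without 10 µM replicate 1 and 190.0 without 10 µM replicate 2. On the log2(FPKM + 1) scale its fall at 10 µM ranked 5 among all genes tested, and voom on fragments gave a log2 change of -6.77.

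Ltf encodes lactoferrin, an iron-binding protein of specific granules. It had 8.69 and 8.59 FPKM in the PBS samples, 1.39 and 2.05 FPKM at 5 µM, and 0.204 and 0.0613 FPKM at 10 µM. Every 5 µM value lay below every PBS value and above every 10 µM value, and the fragments were 807 and 840, then 126 and 196, then 17 and 6. Ltf fell by 1.84 ± 0.13 at 5 µM, the largest fall on the log2(FPKM + 1) scale among the 6 tested genes at that dose, and by 3.09 ± 0.13 at 10 µM (limma adjusted p = 0.000769 and 5.07e-05). Mean Ltf FPKM was 5.03-fold lower at 5 µM and 65.2-fold lower at 10 µM than in PBS, and voom gave a log2 change of -6.28 at 10 µM. The fold at 10 µM was 141.0 without 10 µM replicate 1 and 42.4 without 10 µM replicate 2.

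Camp encodes the precursor of the mouse cathelicidin peptide. It was low from the start, with 2.50 and 2.10 FPKM in the PBS samples, 0.451 and 0.809 FPKM at 5 µM, and 0.109 and 0.093 FPKM at 10 µM. These values rest on 51 and 45 fragments, then 9 and 17, then 2 and 2, and the groups did not overlap. Camp passed the expression filter only through its PBS samples, so a lower value with KN93 was built into its being tested. It fell by 1.02 ± 0.14 at 5 µM and by 1.58 ± 0.14 at 10 µM (limma adjusted p = 0.00503 and 0.000476), and voom on fragments gave -4.23 at 10 µM. Between the doses the log2 change was -0.56 ± 0.14 (limma adjusted p = 0.0445), a call that was lost in 9 of 14 alternatives, among them each leave-one-out except the one without 5 µM replicate 1 (adjusted p = 0.0194 to 0.166 over all 14).

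Of the 6 genes tested, Lcn2 kept the largest share of its PBS level at 10 µM. It encodes lipocalin 2, which binds bacterial siderophores and is both a specific granule protein and an acute phase protein. Lcn2 had 24.1 and 17.9 FPKM in the PBS samples, 7.25 and 9.64 FPKM at 5 µM, and 5.22 and 5.05 FPKM at 10 µM. The groups did not overlap, and 331 and 376 fragments remained at 10 µM. Lcn2 fell by 1.22 ± 0.17 at 5 µM and by 1.83 ± 0.17 at 10 µM (limma adjusted p = 0.00523 and 0.000555). The step between the doses, -0.61 ± 0.17, missed the threshold (limma adjusted p = 0.0573), and it was called in 5 of 15 alternatives (adjusted p = 0.0367 to 0.21 over all 15).

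On GRCm38, Lcn2 lies on chromosome 2 at 32384633 to 32388252. Camp, Ngp and Ltf lie in that order on chromosome 9, at 109847379 to 109849617, 110419747 to 110423012 and 111019271 to 111042767. Between Camp and Ngp are 570129 bases with 22 other entries of the table, and between Ngp and Ltf 596258 bases with 29.

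**Figure D2:**
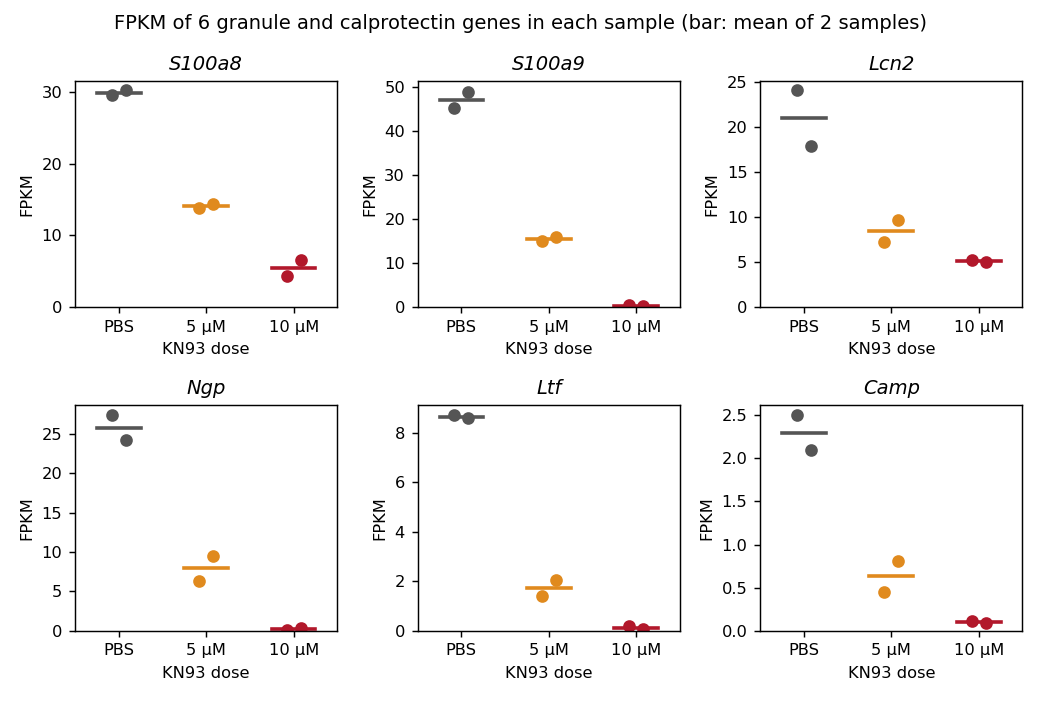
FPKM on linear axes from 0 in each sample by KN93 dose for the 6 genes that reached the expression filter, with points for samples and bars for the mean of 2 samples. In each panel the PBS samples are highest and the 10 µM samples lowest, and S100a9, Ngp and Ltf lie close to 0 at 10 µM while S100a8 and Lcn2 stay above 4 FPKM.

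As shares of the PBS mean, the levels left at 5 µM were 47.2% for S100a8, 40.2% for Lcn2, 32.9% for S100a9, 30.7% for Ngp, 27.4% for Camp and 19.9% for Ltf. At 10 µM the order was different. Lcn2 kept 24.5% and S100a8 18.2%, while Camp kept 4.40%, Ltf 1.53%, Ngp 0.936% and S100a9 0.72%. The shares of Camp, Ltf, Ngp and S100a9 rest on 4, 23, 16 and 9 fragments over the group. With a 10 µM sample left out the folds of Ltf, Ngp and S100a9 overlapped, so their order is not settled. All 6 genes with enough signal to be tested were called lower at 5 µM, where 15.4% of all genes tested were called lower and 15.1% higher, and at 10 µM, where the shares were 22% and 28.5%. Between the doses 5 of the 6 were called lower, against 8.5% of all genes. The median log2 change of the 6 was -1.38 at 5 µM and -2.69 at 10 µM, and that of all genes 0.01 and 0.05. These counts are no independent support, because the genes were known from earlier results of these data and 4 of the 10 could not be tested. Camp, which is in the counts and the medians, passed the filter only through its PBS samples, so its lower values were built in. S100a9, Ngp and Ltf passed it only through PBS and 5 µM samples, so the same limit holds for their values at 10 µM.

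**Figure D3:**
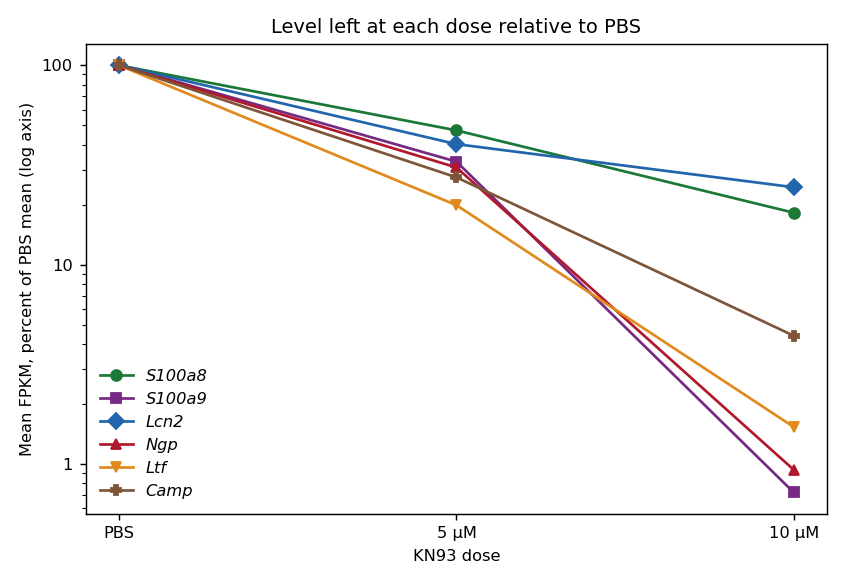
Mean FPKM at each dose as a percentage of the PBS mean (log axis) for 6 genes, each point a mean of 2 samples. The lines lie between 19.9% and 47.2% at 5 µM and split at 10 µM into Lcn2 and S100a8 at 24.5% and 18.2%, Camp at 4.40%, and Ltf, Ngp and S100a9 at 1.53% or less.

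The primary granule genes and the remaining neutrophil markers were below 1 FPKM in every sample. Mpo encodes myeloperoxidase, which makes hypochlorous acid. It had 0.554 and 0.0928 FPKM in the PBS samples, from 51 and 9 fragments, 0 fragments in both 5 µM samples, and 0 and 1 fragment at 10 µM. PBS replicate 1 alone held most Mpo fragments, and Mpo shares its span with the antisense entry Gm11505, listed at 0.202 FPKM in that sample and at 0 in the other 5. The use of strand is not given in the sources used here, so fragments of the 2 entries cannot be told apart. Against a limit of 3 fragments over a group, the 60 PBS fragments put Mpo at least 19.6-fold lower at 5 µM, and at 10 µM the ratio of PBS to KN93 was 57.1 (exact 95% interval 9.86 to 2292). Without PBS replicate 1 only 9 PBS fragments were left, and these values were at least 5.72-fold at 5 µM and 16.7 at 10 µM (exact 95% interval 2.31 to 731.7). Leaving out 1 other sample gave bounds of at least 9.54-fold to at least 34.2-fold at 5 µM, and at 10 µM ratios of 30.8 and 99.6 or, without 10 µM replicate 2, a bound of at least 8.75-fold. With no expression filter Mpo did not pass at either dose (limma adjusted p = 0.28 and 0.225).

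Elane, which encodes neutrophil elastase, had 6 and 2 fragments in the PBS samples, or 0.227 and 0.0717 FPKM, and 0 in all 4 KN93 samples. These bounds take the 8 PBS fragments as exact, which leaves out their counting error. Against a limit of 3 fragments over the group, they are at least 2.61-fold lower at 5 µM and at least 2.54-fold lower at 10 µM. Without PBS replicate 1, 2 PBS fragments remain, under that limit, and no fold can be given. With 1 other sample left out the bounds were at least 1.17-fold to at least 4.02-fold over both doses. Retnlg, which encodes resistin-like gamma, had 0.501 and 0.595 FPKM in the PBS samples, from 8 and 10 fragments, 1 and 0 fragments at 5 µM, and 0 in both 10 µM samples. That is at least 5.71-fold lower at 10 µM, and at least 3.08-fold and 2.63-fold lower without 10 µM replicate 1 and without 10 µM replicate 2. With no expression filter Retnlg was called lower at both doses (limma adjusted p = 0.00727 at 5 µM and 0.00231 at 10 µM), where 5.11% and 9.12% of all genes in that fit were called lower. Ly6g encodes the surface antigen by which mouse neutrophils are usually gated. It had 0 and 3 fragments in the PBS samples, 0 and 1 at 5 µM and 0 and 0 at 10 µM, at or under the limit in every group, so no change was detectable at this depth. Ly6g and Retnlg have close relatives, and fragments may be shared between such genes.

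In PBS the order of levels was S100a9, S100a8, Ngp, Lcn2, Ltf, Camp, Retnlg, Mpo, Elane and Ly6g, on the FPKM scale. Ngp at 25.7 ± 2.24 and Lcn2 at 20.99 ± 4.44 FPKM (SD, n = 2 each) were neighbours in this order whose nearest samples were both at 24.1 FPKM, and the Mpo samples overlapped those of both Retnlg and Elane. At 10 µM S100a8 at 5.45 ± 1.63 and Lcn2 at 5.14 ± 0.12 FPKM led the set and overlapped. The sum over the 10 genes was 139 and 133 FPKM in the PBS samples, 44.3 and 52.3 at 5 µM, and 10.4 and 12.4 at 10 µM.

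Other neutrophil markers were mostly near 0 throughout. Of 14 marker genes listed, 11 stayed below 1 FPKM in every sample, and their summed level was 2.02 and 2.40 FPKM in the PBS samples, 0.658 and 0.963 at 5 µM, and 0.952 and 0.755 at 10 µM. The chemokine receptor gene Cxcr2, a defining neutrophil marker, had 0 and 0.0116 FPKM at 10 µM and 0.0975 and 0.162 in PBS, and Stfa3, a stefin gene, was at 0 in all 6 samples. The stefin genes Stfa1, Stfa2 and Stfa2l1 and the receptor gene Mrgpra2b were listed at 0 in all 4 KN93 samples and reached 0.0497, 0.0749, 0.253 and 0.0279 FPKM in PBS. These PBS values rest on 1, 1, 3 and 1 fragments, too few to read a change from. Trem3, Cd177, Itgb2l and Asprv1 reached at most 0.86, 0.684, 0.318 and 0.0913 FPKM, all in PBS samples. For Asprv1 that is 4 fragments in PBS replicate 2, with 0 in PBS replicate 1 and 3 in each 10 µM sample. Cd177 had 46 and 55 fragments in the PBS samples, 14 and 18 at 5 µM, and 9 and 3 at 10 µM. For Itgb2l these were 37 and 34, then 6 and 16, then 2 and 0. For Trem3 they were 23 and 22, then 8 and 11, then 4 and 6. The chemokine receptor gene Cxcr1, related to Cxcr2, was listed higher at 10 µM, 0.555 and 0.425 FPKM, than in PBS, 0.0249 and 0. Its values are part of the summed levels of 0.952 and 0.755 FPKM at 10 µM. Fpr1, Csf3r and Mmp8 were the 3 that reached the filter, and macrophages can express these. Fpr1, which encodes a receptor for formylated bacterial peptides, had 9.62 ± 0.44 FPKM at 10 µM and 105 ± 25.2 in PBS (SD, n = 2 each), a fall of 3.29 ± 0.16 (limma adjusted p = 6.51e-05). Csf3r, the receptor of the granulocyte growth factor G-CSF, had 48.2 ± 2.51 FPKM at 10 µM and 58.9 ± 1.80 in PBS, a fall of 0.29 ± 0.07 (limma adjusted p = 0.0209) that was lost with no filter and without PBS replicate 1, PBS replicate 2 or 10 µM replicate 1 (adjusted p = 0.0568 to 0.0984). The part that neutrophils or their precursors have in the levels of the 10 genes was not tested.

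**Figure D4:**
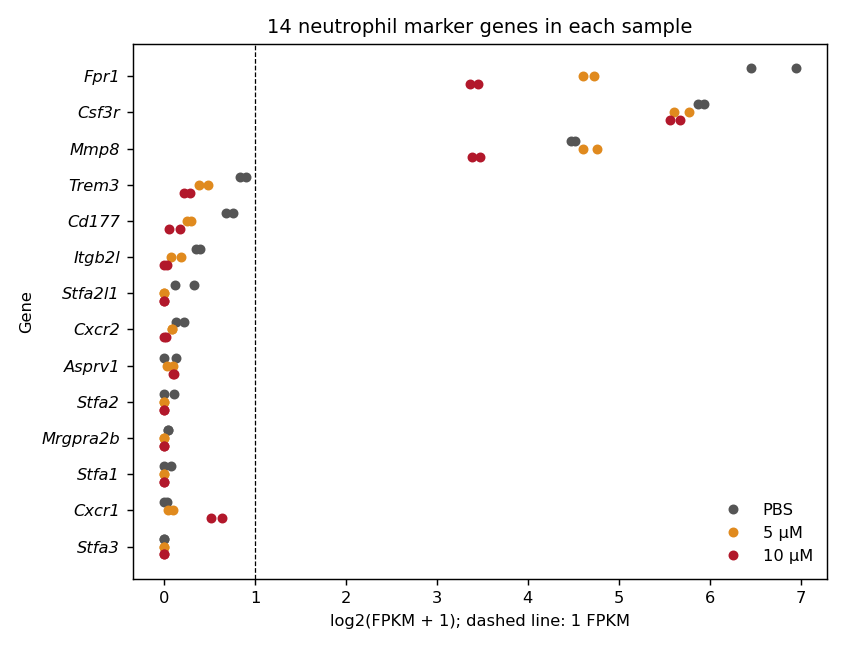
Level of 14 neutrophil marker genes, on the log2(FPKM + 1) scale, with 1 point per sample coloured by KN93 dose and a dashed line at 1 FPKM. Fpr1, Csf3r and Mmp8 lie to the right of the line in every sample, and the other 11 lie to its left.

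Markers of other cells moved in the same samples. The counts of this and the next lists stand beside 22% of all genes tested called lower and 28.5% called higher at 10 µM. The summed level of 6 monocyte markers was 5.78 and 4.36 FPKM at 10 µM and 72.7 and 71.2 FPKM in PBS, and all 5 that were tested fell. Of these, Ccr2 reached the filter only through its PBS samples, so its fall of 1.14 was built into its being tested. F13a1, which encodes a chain of coagulation factor XIII, had 0.785 ± 0.139 FPKM at 10 µM and 41.9 ± 1.20 in PBS, and Vcan fell by 0.91 (limma adjusted p = 1.02e-05 and 0.00746). F13a1 reached the filter only through PBS and 5 µM samples, so the same limit holds for its value at 10 µM. Ly6c2, the surface antigen of inflammatory monocytes, had 1.43 ± 0.29 FPKM at 10 µM and 22.7 ± 1.26 in PBS. The 10 macrophage markers summed to 8336 and 9171 FPKM at 10 µM and to 18890 and 18350 in PBS, and 8 fell and 1 rose. Itgam, Cd14, Mrc1 and Adgre1 fell by 1.97, 3.40, 2.22 and 1.52 (limma adjusted p of 9.43e-05 or less). The 1 that rose was Cd68, by 0.77 ± 0.07 (limma adjusted p = 0.000403), and Fcgr1 was not called (-0.08 ± 0.09, limma adjusted p = 0.4745). Of 9 stromal markers 8 were tested and 6 fell at 10 µM, with sums of 346 and 323 FPKM at 10 µM and 1834 and 1772 in PBS. Acta2, Col1a1, Cxcl12 and Col1a2 fell by 3.10, 2.32, 2.58 and 1.70 (limma adjusted p of 0.000106 or less). The basophil protease gene Mcpt8 had 1.23 ± 0.19 FPKM at 10 µM and 4.12 ± 0.07 in PBS, while the other 4 mast cell and basophil markers, all 5 progenitor markers and all 6 erythroid markers stayed below 1 FPKM. Among lymphocyte markers, 5 of 6 T and NK cell markers and 3 of 4 B cell markers stayed below 1 FPKM, Cd4 had 2.05 ± 0.02 FPKM at 10 µM and 3.94 ± 0.33 in PBS, and Cd79b had 1.48 ± 0.34 FPKM at 10 µM and 7.81 ± 0.09 in PBS. Siglecf, the 1 tested of 5 eosinophil markers, had 0.514 ± 0.05 FPKM at 10 µM and 1.03 ± 0.12 in PBS. It too reached the filter only through PBS and 5 µM samples. The part of these cells in the changes of the 10 genes was not tested.

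Other granule genes are given here by granule type. Of 6 further primary granule genes, among them Prtn3 and Ctsg, 0 reached the filter, and they summed to 0.534 and 0.615 FPKM at 10 µM and to 2.004 and 1.72 in the PBS samples. Of 12 further genes of specific and gelatinase granules, 8 were tested. At 10 µM 6 fell and 1 rose, with a median log2 change of -1.05. At 5 µM 4 fell and 1 rose, with a median of -0.26, where 15.4% of all genes tested were called lower and 15.1% higher. Chil3, which encodes the chitinase-like protein Ym1, had 0.125 ± 0.146 FPKM at 10 µM and 15.8 ± 0.11 in PBS, a fall of 3.91 ± 0.10 (limma adjusted p = 1.3e-05). It reached the filter only through PBS and 5 µM samples, so a lower value at 10 µM was built into its being tested. Mmp9, the gelatinase, had 17.6 ± 1.03 FPKM at 10 µM and 116 ± 3.92 in PBS, and Hp, which encodes the haemoglobin-binding protein haptoglobin, 10.0 ± 1.14 FPKM at 10 µM and 45.1 ± 1.89 in PBS. Mmp8, which encodes a collagenase, fell at 10 µM to 9.78 ± 0.49 FPKM, against 21.6 ± 0.39 in PBS. Cyba, a subunit of the NADPH oxidase named here after its value was seen, rose by 1.13 ± 0.10 at 10 µM (limma adjusted p = 0.000435).

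Of 14 other S100 genes, 6 were tested, all with smaller changes than S100a9, and at 10 µM 5 fell and 1 rose, with a median log2 change of -0.55. S100a16 had 2.10 ± 0.29 FPKM at 10 µM and 7.47 ± 0.55 in PBS, a fall of 1.45 ± 0.09 (limma adjusted p = 0.000156). S100a6 and S100a11 fell by 0.93 ± 0.16 and 0.59 ± 0.07 (limma adjusted p = 0.00553 and 0.00106). S100a1 rose by 1.61 ± 0.11 (limma adjusted p = 0.000177), with 177 ± 27.9 FPKM at 10 µM and 56.8 ± 1.95 in PBS.

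The next list held receptors of the secreted proteins. Of 13 listed, 9 were tested, and at 10 µM 4 fell and 2 rose, with a median of -0.22. Of all genes 22% were called lower and 28.5% higher. Tlr4, a receptor through which extracellular calprotectin signals, had 12.1 ± 1.74 FPKM at 10 µM and 17.7 ± 0.45 in PBS, a fall of 0.52 ± 0.09 (limma adjusted p = 0.00566). Lrp1, an endocytic receptor that binds lactoferrin, fell by 0.65 ± 0.11 and Nptn by 0.22 ± 0.04, while Cd69 rose by 0.96 ± 0.11 (limma adjusted p = 0.00509, 0.00688 and 0.00124). Cd69 reached the filter only through its 10 µM samples, so a rise at 10 µM was built into its being tested. Ager, which encodes the receptor RAGE, and both lipocalin 2 receptor genes, Slc22a17 and Lrp2, stayed below 1 FPKM.

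Of 13 transcription factor genes tied to granulocyte and macrophage development, 9 were tested. At 10 µM 4 fell and 1 rose, with a median log2 change of -0.05. Of all genes tested 22% were called lower and 28.5% higher, and no result about the list is read from so few genes. Cebpe, which drives specific granule genes in maturing neutrophils, stayed between 0.1 and 0.284 FPKM in all 6 samples, and Gfi1 at or below 0.128. Cebpd had 1.62 ± 0.22 FPKM at 10 µM and 4.09 ± 0.40 in PBS, a fall of 0.96 ± 0.10 (limma adjusted p = 0.000781). Irf8 and Cbfb fell by 0.38 ± 0.06 and 0.35 ± 0.05, and Cebpg rose by 0.47 ± 0.06 (limma adjusted p = 0.00313, 0.00338 and 0.00129).

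Acute phase genes, with which Lcn2 is often grouped, went in both directions. Of 10 listed, 5 were tested, and at 10 µM 3 fell and 1 rose. Saa3, a serum amyloid A gene of macrophages, had 31.0 ± 0.05 FPKM at 10 µM and 537 ± 129.5 in PBS, a fall of 4.05 ± 0.18 (limma adjusted p = 5.7e-05), and the complement gene C3 fell by 0.45 ± 0.07 (limma adjusted p = 0.00432). Orm1 rose by 3.48 ± 0.22 (limma adjusted p = 0.000154), with 13.6 ± 4.18 FPKM at 10 µM and 0.28 ± 0.01 in PBS. It reached the filter only through its KN93 samples, so a rise against PBS was built into its being tested.

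Among genes outside the set, the profiles most like S100a9 over the 6 samples were those of Marco, Saa3 and Chil3, at Euclidean distances of 0.525, 1.33 and 1.38 between centred log2(FPKM + 1) values. Marco, a scavenger receptor gene, averaged 210.1 FPKM in PBS, 64.6 at 5 µM and 3.36 at 10 µM. S100a8 itself lay farther from S100a9, at 3.14, than Ngp did, at 1.04. Nearest to S100a8 were Hp, Slc9a9 and Aif1, at 0.401, 0.415 and 0.415. Nearest to Lcn2 were Gas7, Slc13a3 and Tmem119, at 0.26, 0.287 and 0.327, and the distance from Lcn2 to Camp was 0.311. Distances on this scale are short for low genes, whose changes it compresses, and all 6 samples share the same dose groups.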

How the data were processed

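The FPKM values are the authors' own, in 1 deposited table of 54446 entries with a column for each of the 6 samples, and 0 columns belonged to no sample. Reads had been aligned with HISAT2 to GRCm38, according to the submitters' processing notes. No version, counting tool, annotation or strand setting is given in the sources used. Gene IDs were matched to GENCODE M21 (99.93%), and FPKM times exon length gave whole fragments, within 0.1, for 98.8% to 99% of values of up to 20 fragments. The 12722 genes that reached 1 FPKM in 2 or more samples were tested on log2(FPKM + 1) with limma 3.58.1 in R 4.3.3 (intensity trend, all 6 samples in one fit, 3 residual degrees of freedom), two-sided, with Benjamini-Hochberg adjustment over all genes and calls at an adjusted p under 0.05. The fit was also run on simulated data with a fixed spread for all genes. That run does not show how well the p-values hold for the spread of these samples. The 10 genes and the lists were chosen with earlier results of these data known. From each other list up to 4 tested genes with the smallest p at 10 µM were named, with all listed neutrophil markers by their levels; for S100a8, S100a9 and Lcn2 the 3 nearest profiles were added. The genes Cyba, Csf1r, Cd68, Fcgr1, Gm11505, Prtn3, Ctsg, Ager, Slc22a17, Lrp2, Cebpe and Gfi1 were named after their values were seen. Tried as alternatives were a pseudocount of 0.1 FPKM, filters of 0 and of 5 FPKM, median-of-ratios scaling, quantile normalization, no trend, the replicate number as a block, a fit of the 4 samples compared, voom on recovered fragments (library size as their sum) and each sample left out. Leaving out each sample for the folds and fragment bounds was added after the data were seen.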

Additional observations from a re-analysis of the deposited data

How the results depend on the processing

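The counts of the 10 genes called (6, 6 and 5) and of the list genes called stayed within 1.5 times under all 15 alternatives run. Each of the 6 tested genes kept its direction in the 3 comparisons, and at both doses against PBS kept its call, in every alternative that tested it. Camp was not tested with a filter of 5 FPKM. The leave-one-out fits that leave 1 sample in a group assume that it varies like the others. The difference between the dose steps was less stable, and it has no value with only the 2 groups compared. For S100a8 it was -0.22, and from -0.48 to 0.043 with a sample left out. For Ltf it was 0.58, and -0.72 with a pseudocount of 0.1 FPKM and -1.51 with voom, and for Camp it was 0.47, and -0.061 and -0.43, none of them past the threshold. The cause was not tested, but the pseudocount of 1 FPKM compresses low values by construction. For Ngp the difference passed with voom alone (-3.27, limma adjusted p = 0.0279). The labels give the samples a shared suffix but no shared animal or day. Deviations of the first replicates correlated at -0.055, 0.0143 and 0.0373 between groups, so the numbers were not taken as pairs. With the replicate block 3409, 6023 and 2079 of all genes were called in the 3 comparisons, against 3881, 6427 and 2536 without it. The block left 6 and 6 of the 10 genes called against PBS, and between the doses Camp lost its call (limma adjusted p = 0.0687). Depth limits Mpo, Elane, Ly6g and Retnlg, and S100a9, Ngp, Ltf and Camp at 10 µM, to few fragments.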
